A study of Mus musculus with 35 samples.

Results

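The livers of 5 mice that had breathed styrene at 20 ppm were compared with those of 5 mice that had breathed air alone. These were 10 of the 35 arrays of the series, the 5 titled as 20 ppm and the 5 titled as 0 ppm, and every non-control probe set entered the comparison. All mice were adult males of the inbred strain C57Bl/6, labelled wild type, and each was held in a cage of its own during a single exposure of 6 hours and killed on the next morning. The other groups were 1, 5, 10, 40 and 120 ppm with 5 mice each, and each array held the liver of 1 mouse labelled as a biological replicate. The labels give concentration as the only difference in treatment between groups. Each title also carries a number, and these numbers rise with concentration, all 5 at 20 ppm being above all 5 in air. Concentration and anything that follows that number cannot be told apart here.

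Styrene, the monomer of polystyrene, is oxidised by cytochrome P450 enzymes to styrene oxide, which epoxide hydrolase opens and glutathione transferases conjugate. The liver does much of this work. It also runs daily programmes in which a transcriptional clock and food intake set the balance between burning and making fatty acids. In that clock BMAL1, with CLOCK or NPAS2 as partner, switches on the PER and CRY repressors and output factors such as TEF and HLF through a DNA word called the E-box. The receptor PPARA switches on fatty acid oxidation.

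The arrays are described before the results because some of their own measures went with exposure. All values are on the deposited log2 scale. Any pair of the 10 arrays correlated at 0.983 to 0.994 (Pearson's r over probe sets). The actin control probe sets read the 3' and the 5' end of the transcript, and their difference tracks how intact and how fully labelled the RNA was. It was 0.61, 0.80, 0.61, 0.74 and 0.85 at 20 ppm, in the order of replicates 1 to 5, against 0.44, 0.47, 0.44, 0.49 and 0.55 in air. The groups did not overlap (difference 0.25, two-sided exact permutation p = 0.00794, the smallest that 5 against 5 mice can give, adjusted p = 0.0238 over 3 measures). Both ends also had lower values at 20 ppm, with changes of -0.43 (3') and -0.67 (5'), and p-values of 0.000512 and 0.000131 in limma, adjusted over the 104 control probe sets. The same difference for GAPDH was 0.0299 ± 0.242 (SD, n = 5) at 20 ppm and 0.147 ± 0.0471 in air (difference -0.12, exact permutation p = 0.365). At 20 ppm replicate 5, at -0.40, stood apart from its group, and without it the difference was -0.00906 (exact permutation p = 0.762). The array median was 3.530 ± 0.0279 at 20 ppm and 3.503 ± 0.0194 in air (exact permutation p = 0.119).

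**Figure D1:**
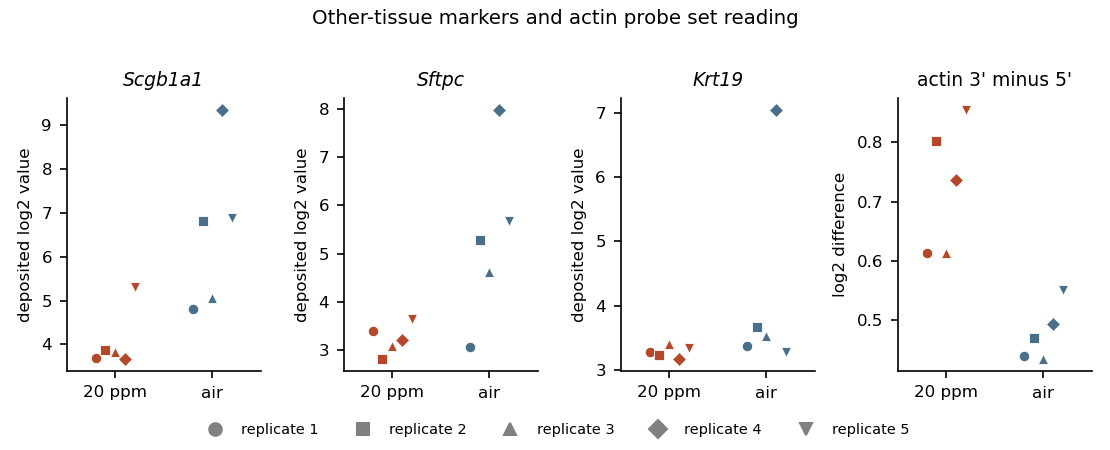
Values of 2 lung markers, the bile duct and epithelial marker Krt19 and the actin 3' minus 5' difference in each mouse, on log2 scales, with 20 ppm left of air and 1 symbol per replicate number. Air replicate 4 is highest for Scgb1a1 (9.34), Sftpc (7.98) and Krt19 (7.04), and the actin difference separates all 5 mice at 20 ppm (0.61 to 0.85) from all 5 in air (0.44 to 0.55).

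Hepatocyte markers were bright in every liver, and air replicate 4 was the highest mouse for the lung genes Scgb1a1 and Sftpc. None of 11 hepatocyte markers was called, where 1.46% of all genes were, with changes between -0.11 and 0.34. Their summed linear level was 94214 to 101467 at 20 ppm and 93250 to 99209 in air. Scgb1a1, a secreted protein of airway club cells, was at 3.68, 3.87, 3.83, 3.68 and 5.30 at 20 ppm and 4.81, 6.82, 5.06, 9.34 and 6.89 in air. The change was -2.51 ± 0.58 on the log2 scale, with the SE of limma and an adjusted p of 0.0241. Sftpc, the surfactant protein of alveolar cells, was at 3.39, 2.81, 3.08, 3.20 and 3.63 at 20 ppm and 3.06, 5.27, 4.60, 7.98 and 5.68 in air (change -2.10, adjusted p = 0.0177). In both genes the groups overlapped. The 6 styrene groups had Scgb1a1 means between 4.06 and 4.92, and air had 6.58. Of 7 measured lung markers these 2 were called, where 0.959% of all genes fell. Other lung markers, Sftpa1, Sftpd and Napsa, lay near the bottom of the scale, at means of 3.43, 3.00 and 2.63 at 20 ppm and 3.66, 3.16 and 2.69 in air. The summed linear level of the 7 markers was 1668 to 2441 at 20 ppm and 1485 to 2215 in air. Hopx, the brightest of them in these livers, was at 11.01 at 20 ppm and 10.51 in air. It made up most of that sum, so the sum says little about the other markers. Krt19, a keratin of bile ducts and other epithelia, was at 3.28, 3.23, 3.40, 3.18 and 3.34 at 20 ppm and 3.37, 3.66, 3.52, 7.04 and 3.28 in air (adjusted p = 0.426), with air replicate 4 alone far above the rest. The lower calls of Scgb1a1 were lost without any 1 of 20 ppm replicates 2 and 4 and air replicates 2 and 4 (adjusted p up to 0.0911), and those of Sftpc without 20 ppm replicate 2 or 4 (adjusted p up to 0.0856). In whole liver fewer cells of a type and less RNA per cell cannot be told apart, and the part of lung transcripts in other results was not tested.

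After a single exposure to 20 ppm, 6 of 24 PPARA targets and 4 of 12 clock genes of the PER arm rose. Over all genes 0.497% did. Of 28 NRF2 targets 7 fell, as did 3 of 18 genes of fatty acid synthesis and 3 of 10 tubulins. Over all genes 0.959% fell. Me1 is counted both as an NRF2 target and as a gene of fatty acid synthesis. Of 45037 probe sets 466 were called at an adjusted p under 0.05, or 1.03%, with 187 higher and 279 lower, and 246 of them changed at least 1.5-fold. In limma 5472 had an unadjusted p under 0.05. Over genes, each read by its brightest probe set, 249 of 17097 were called (1.46%), 85 higher (0.497%) and 164 lower (0.959%). The median absolute change of the called genes was 0.59 on the log2 scale, and 44 changed at least 2-fold. In 117 of the 249 the values of the 2 groups did not overlap, which was the case for 425 of all genes (2.49%). Centring every array on its own median turned the probe set split into 148 higher against 375 lower.

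These calls rest on the spread shared by all 7 groups and on single mice. A fit of the 10 arrays alone called 0 probe sets in limma, with 5343 at an unadjusted p under 0.05 and a smallest adjusted p of 0.0593. With the actin 3' minus 5' difference as a covariate 0 were called as well, with 1696 at an unadjusted p under 0.05, and since that reading separates the groups its part and that of the exposure cannot be told apart, for any gene group described here. Refitted without 20 ppm replicate 2, 3, 4 or 5, each left out alone, the total called was 37, 1109, 88 and 163 probe sets, of which 37, 462, 86 and 153 were among the 466. Without air replicate 2, 3 or 4 it was 227, 154 and 233, with 209, 154 and 221 among them. For genes, the counts ran from 23 without 20 ppm replicate 2 to 601 without 20 ppm replicate 3. Among the 61 called genes named here, 44 missed the threshold without 20 ppm replicate 2, and 16 passed in every fit that left out 1 of the 10 arrays.

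**Figure D2:**
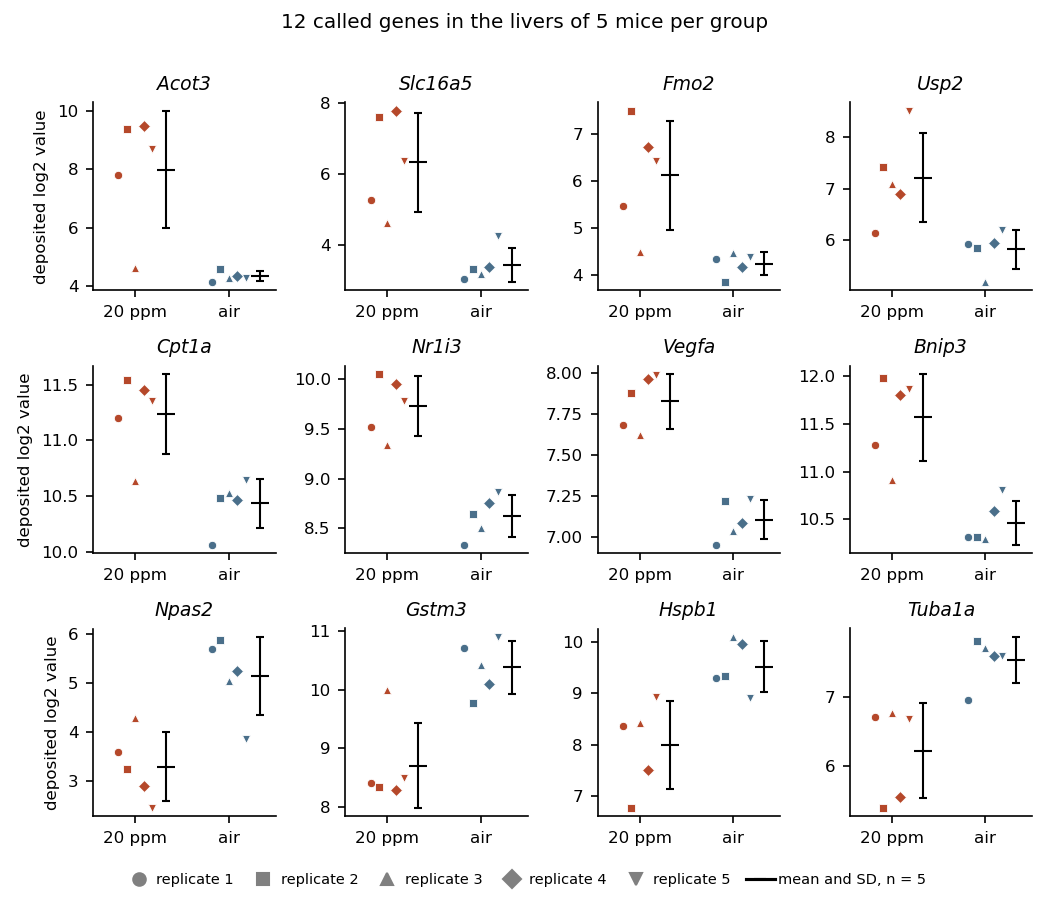
Deposited log2 values of 12 called genes in each mouse, 20 ppm left of air, with 1 symbol per replicate number and bars for the mean and SD of 5 mice. At 20 ppm replicate 3 (upward triangles) lies nearest to air for Acot3 (4.61), Slc16a5 (4.62) and Fmo2 (4.49), while Vegfa separates the groups completely, with 7.62 to 7.99 at 20 ppm and 6.95 to 7.23 in air.

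The largest rise was that of Acot3, a peroxisomal thioesterase that frees fatty acids from coenzyme A. It was at 7.80, 9.37, 4.61, 9.46 and 8.71 at 20 ppm and 4.14, 4.60, 4.29, 4.35 and 4.27 in air. In 4 of the 5 exposed mice it lay more than 3 log2 units above every air mouse, while 20 ppm replicate 3, at 4.61, was just above the highest of them, at 4.60. The fitted rise was 12.7-fold, 3.66 ± 0.68 on the log2 scale (adjusted p = 0.00762). Slc16a5, a transporter of the monocarboxylate family, had 5.25, 7.59, 4.62, 7.77 and 6.35 at 20 ppm and 3.03, 3.31, 3.18, 3.37 and 4.25 in air, with the groups apart, and rose 7.41-fold (2.89 ± 0.56, adjusted p = 0.00971). Fmo2, a flavin-containing monooxygenase that oxidises nitrogen and sulphur compounds, had 5.46, 7.48, 4.49, 6.72 and 6.42 at 20 ppm and 4.34, 3.86, 4.47, 4.17 and 4.38 in air. Its lowest exposed mouse, replicate 3 again, was just above the highest air mouse, and the rise was 3.65-fold (adjusted p = 0.00762). D630004K10Rik, a transcript with no role given here, had 5.45, 6.45, 4.91, 5.98 and 6.27 at 20 ppm and 3.80, 4.35, 4.07, 4.12 and 4.65 in air and rose 3.07-fold (adjusted p = 0.000949), with no overlap. Fmo2 and D630004K10Rik passed without any 1 of the 10 arrays. Acot3 missed the threshold without 20 ppm replicate 2 (adjusted p = 0.0541), and Slc16a5 without 20 ppm replicate 2 or 4 (adjusted p up to 0.0654).

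Targets of PPARA rose as far as they were called. Of 24 measured members 6 rose, where 0.497% of all genes did, and 0 fell. The median change was 0.47 over all 24, against 0.00222 over all genes. Cpt1a, the carnitine palmitoyltransferase that lets long fatty acids into mitochondria, was at 11.20, 11.54, 10.64, 11.45 and 11.35 at 20 ppm and 10.06, 10.48, 10.53, 10.47 and 10.64 in air, where only 20 ppm replicate 3 and air replicate 5 touched, at 10.64 each. It rose 1.74-fold (0.80 ± 0.16, adjusted p = 0.00991). Slc25a20, the carrier that takes acylcarnitines across the inner membrane, rose 1.48-fold (adjusted p = 0.0144), and Pex11a, which acts in peroxisome division, 1.63-fold (adjusted p = 0.0222), both with groups that did not overlap. Vnn1, a pantetheinase, had 9.54, 9.94, 7.70, 9.53 and 9.51 at 20 ppm and 7.08, 8.33, 7.78, 8.01 and 7.64 in air and rose 2.77-fold (adjusted p = 0.0231). Its 20 ppm replicate 3 lay inside the air range and the other exposed mice above it. Cyp4a31, a fatty acid hydroxylase of the P450 family with near-identical neighbours that may share its probes, rose 2.43-fold (adjusted p = 0.0307). Acot3 was the sixth.

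Other oxidation genes on the list had changes that did not pass. Its members Acadl and Hadhb, enzymes of mitochondrial oxidation, had changes of 0.37 (adjusted p = 0.0648) and 0.36 (adjusted p = 0.0729). Crat, the carnitine acetyltransferase, had 1.00 (adjusted p = 0.0533), and Cyp4a10 had 1.37 (adjusted p = 0.0912). These 4 and Pdk4, the kinase that restrains pyruvate oxidation, were picked out after their values were seen, and Pdk4 had -0.38 (adjusted p = 0.471). Without 20 ppm replicate 2 all 6 called members missed the threshold, at adjusted p of 0.0541 for Acot3, 0.0641 for Cpt1a, 0.0856 for Slc25a20, 0.107 for Pex11a, 0.122 for Vnn1 and 0.156 for Cyp4a31. Slc25a20 missed it without 20 ppm replicate 4 as well, and Pex11a, Vnn1 and Cyp4a31 were lost without any 1 of 6, 5 and 7 of the 10 arrays.

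No gene of fatty acid synthesis rose. Of 18 measured genes 3 fell, where 0.959% of all genes did, with a median of -0.43. Acacb, the acetyl-CoA carboxylase at the mitochondrion whose product malonyl-CoA inhibits CPT1, was at 6.81, 7.01, 7.44, 7.09 and 6.62 at 20 ppm and 8.12, 8.14, 8.28, 7.99 and 7.82 in air. Every exposed mouse was below every air mouse, and the level was 2.11-fold lower (-1.08 ± 0.21, adjusted p = 0.00971). The call was kept in all 10 fits without 1 array, but a dimmer probe set for Acacb had a change of the opposite sign that did not pass. Me1, the malic enzyme that supplies NADPH, was 1.67-fold lower (adjusted p = 0.0367). Elovl3, an elongase of long fatty acids with a daily rhythm and higher in male liver, had 11.82, 10.31, 12.01, 10.55 and 8.98 at 20 ppm and 12.75, 12.60, 12.67, 12.34 and 10.85 in air and was 2.84-fold lower (adjusted p = 0.0307). Replicate 5 was the lowest mouse for Elovl3 in both groups. Scd1, the stearoyl-CoA desaturase, had a change of -0.51 (adjusted p = 0.0546) and Thrsp, a lipogenic nuclear protein, one of -1.22 (adjusted p = 0.0586), both picked out after their values were seen. Me1 and Elovl3 missed the threshold without any 1 of 8 and 7 of the 10 arrays (adjusted p up to 0.14 and 0.127, each without 20 ppm replicate 2). Gpat3, which starts glycerolipid synthesis by acylating glycerol-3-phosphate, was not on this list and rose 2.94-fold (adjusted p = 0.0133), with 5.40, 6.39, 5.84, 6.28 and 6.23 at 20 ppm and 4.41, 4.58, 4.19, 4.08 and 5.12 in air. Its groups did not overlap, and it missed the threshold without 20 ppm replicate 2 or 4 (adjusted p up to 0.0697).

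**Figure D3:**
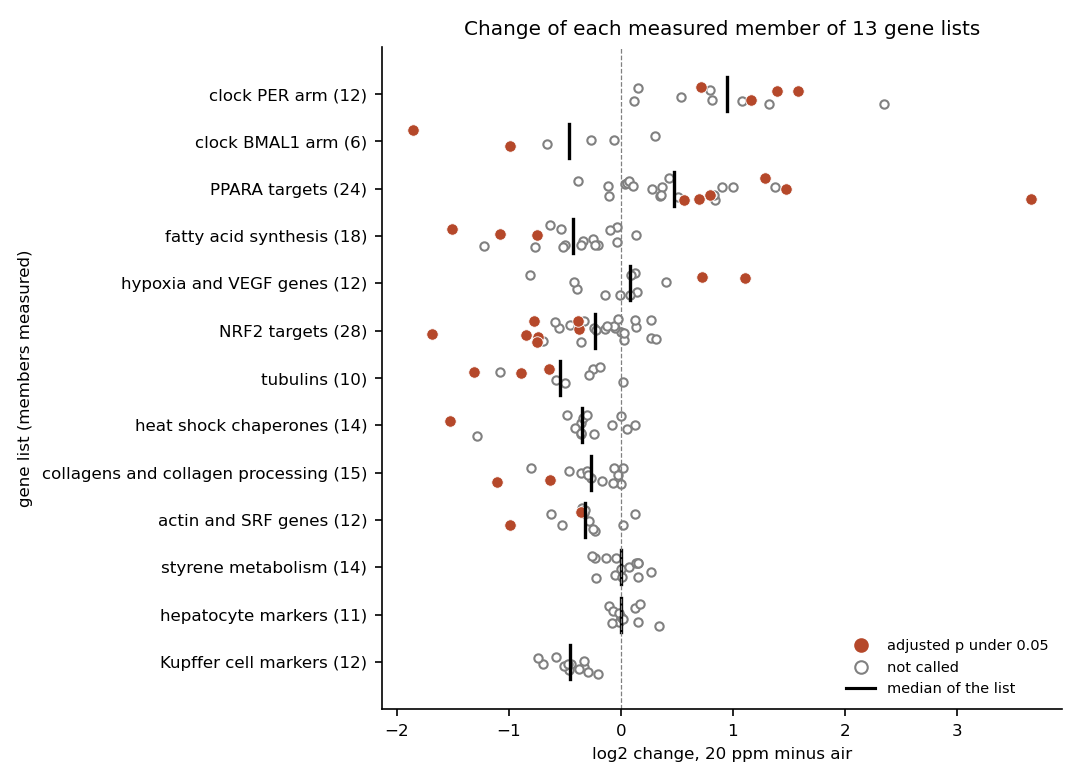
Log2 change at 20 ppm minus air (horizontal axis) of each measured member of 13 gene lists, with called genes filled and a black line at the median of each list. All 12 members of the PER arm lie above 0 with 4 called, all 12 Kupffer cell markers lie below 0 with none called, and the hepatocyte and styrene metabolism lists centre on 0.

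Clock genes were called higher in one arm and lower in the other. In the PER arm, the clock and output genes whose transcripts peak late in the day in mouse liver, all 12 measured members had changes above 0, with a median of 0.95, and 4 rose, where 0.497% of all genes did. Usp2, a deubiquitinating enzyme with a strong daily rhythm, was at 6.13, 7.41, 7.10, 6.90 and 8.51 at 20 ppm and 5.92, 5.84, 5.18, 5.95 and 6.20 in air. Only 20 ppm replicate 1 lay within the air range, and Usp2 rose 2.63-fold (1.39 ± 0.31, adjusted p = 0.0189). Ciart, a repressor of the clock, had 3.28, 6.12, 4.90, 5.06 and 5.91 at 20 ppm and 3.83, 3.17, 3.27, 3.57 and 3.53 in air and rose 2.99-fold (adjusted p = 0.0211), again with 20 ppm replicate 1 as the mouse that overlapped air. Hlf and Tef encode output factors that bind the same DNA sites. Hlf, at 7.14, 7.80, 7.18, 7.23 and 8.01 at 20 ppm and 6.65, 6.79, 6.53, 6.98 and 6.82 in air, rose 1.64-fold with no overlap (adjusted p = 0.0125), and Tef rose 2.24-fold (adjusted p = 0.0405). Dbp, their relative, had the largest change of the arm, 2.35, and did not pass (adjusted p = 0.259). The core genes Per1, Per2 and Per3 had 0.80, 0.82 and 1.32 (adjusted p = 0.211, 0.069 and 0.0968). Dbp and these 3 were picked out after their values were seen.

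In the opposite arm, which peaks around dawn, 2 of 6 measured genes fell, where 0.959% of all genes did, and 0 rose, with a median of -0.46. Npas2, the partner of BMAL1, was at 3.60, 3.24, 4.29, 2.89 and 2.45 at 20 ppm and 5.69, 5.89, 5.04, 5.25 and 3.86 in air. Air replicate 5 lay below 20 ppm replicate 3, and the other air mice lay above all exposed mice. Npas2 was 3.62-fold lower (-1.86 ± 0.34, adjusted p = 0.00762) and passed without any 1 array. Arntl, which encodes BMAL1, had 5.99, 5.56, 6.47, 5.53 and 4.55 at 20 ppm and 6.80, 6.94, 6.79, 6.51 and 5.97 in air and was 1.98-fold lower (adjusted p = 0.0482). In both groups replicate 5 was the lowest mouse for Npas2 and Arntl and the highest for Usp2. From replicate 1 to replicate 5 Npas2 also went from 5.58 to 4.47 at 1 ppm and from 5.47 to 3.87 at 5 ppm. At 10 ppm it went from 5.19 to 3.94, with replicate 2 lowest (3.62). Usp2 was highest in replicate 4 at 1 and 5 ppm (6.03 and 6.19) and in replicate 2 at 10 ppm (6.81). Title numbers rise with replicate number and from air to 20 ppm, and their part in the clock calls was not tested. Hlf missed the threshold without 20 ppm replicate 2 (adjusted p = 0.0743). Usp2 missed it without 20 ppm replicates 2 or 5 or air replicate 3 (adjusted p up to 0.0867), and Ciart, Tef and Arntl without any 1 of 5, 6 and 7 of the 10 arrays (adjusted p up to 0.123, 0.147 and 0.187). Averaged over its probe sets, Arntl had a change of -0.55 and did not pass (adjusted p = 0.0916). The clock's part in the other groups of genes was not tested.

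The E-box, CACGTG, was looked for in the 250 bases before the start of each gene in RefSeq promoters of the build GRCm38.p6. Promoters on 1 chromosome were left out. Of the 61 called genes named here 47 had a promoter row that was used. The word reads the same on both strands. It stood in 1190 of 13605 measured genes with such a row (8.75%), in 14 of 69 called higher and 11 of 132 called lower. Ciart held 3 matches, starting 116, 58 and 44 bases before the start, and both of the promoters listed for Tef held 1, 127 and 138 bases before their starts. Those of Usp2, Hlf, Npas2 and Arntl held none in this window. Of the other called genes named here, Bnip3, Fkbp5 and Nr1i3, which rose, held the word, as did Aqp8, Pdzk1ip1 and Tubb5, which fell. The promoters of Ciart and Tef are printed as those of called genes of the rising arm that hold matches. That of Hspb1, described further on, is printed since it holds 2 matches to the paired heat shock word GAANNTTC. That word was in 907 of the 13605 genes (6.67%), in 5 of 69 called higher and 9 of 132 called lower. Capitals mark matches, each sequence runs 5′ to 3′ on the strand of its gene, and a match is a description of letters.
Ciart, chr3:95882229-95882478, minus strand: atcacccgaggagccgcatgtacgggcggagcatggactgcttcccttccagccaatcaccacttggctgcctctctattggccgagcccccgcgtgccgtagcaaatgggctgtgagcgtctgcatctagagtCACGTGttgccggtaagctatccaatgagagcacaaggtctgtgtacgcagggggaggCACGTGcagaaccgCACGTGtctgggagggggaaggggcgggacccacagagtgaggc
Tef, chr15:81802423-81802672, plus strand: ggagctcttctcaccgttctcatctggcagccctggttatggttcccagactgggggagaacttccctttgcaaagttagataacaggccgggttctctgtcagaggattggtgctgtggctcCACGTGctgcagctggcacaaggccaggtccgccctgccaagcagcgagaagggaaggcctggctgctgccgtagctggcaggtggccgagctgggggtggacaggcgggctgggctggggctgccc
Tef, chr15:81811164-81811413, plus strand: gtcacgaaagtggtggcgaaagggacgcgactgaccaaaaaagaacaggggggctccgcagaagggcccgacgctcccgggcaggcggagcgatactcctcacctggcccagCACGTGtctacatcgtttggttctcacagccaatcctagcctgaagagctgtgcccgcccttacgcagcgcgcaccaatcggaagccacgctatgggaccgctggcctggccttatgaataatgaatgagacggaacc
Hspb1, chr5:135887669-135887918, plus strand: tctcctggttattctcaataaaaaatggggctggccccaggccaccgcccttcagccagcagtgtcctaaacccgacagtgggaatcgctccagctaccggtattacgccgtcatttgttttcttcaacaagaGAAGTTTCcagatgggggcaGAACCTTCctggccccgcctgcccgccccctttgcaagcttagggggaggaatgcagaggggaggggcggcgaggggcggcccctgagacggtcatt
The D-box, TTATGTAA, which is bound by TEF and HLF, was in 96 of the 13605 genes (0.706%), in 1 called higher and 1 called lower. The core of the antioxidant response element, TGACNNNGC, was in 1823 (13.4%), in 16 of 69 called higher and 20 of 132 called lower. All 4 words were searched on both strands, and no matches to different words overlapped in the sequences shown.

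The strongest call was that of Vegfa, the growth factor of blood vessels, which hepatocytes secrete. It was at 7.69, 7.88, 7.62, 7.97 and 7.99 at 20 ppm and 6.95, 7.22, 7.04, 7.09 and 7.23 in air. All mice at 1 ppm (7.34 to 7.56) and at 10 ppm (7.37 to 7.65) lay above the highest air mouse, at 7.23. Those at 5 ppm ran from 7.225 to 7.682. The lowest mouse at 20 ppm, at 7.62, also lay above the highest air mouse. Against air Vegfa rose 1.65-fold (0.72 ± 0.09, adjusted p = 0.00021). Bnip3, a mitochondrial protein that marks mitochondria for removal, had 11.28, 11.98, 10.92, 11.80 and 11.87 at 20 ppm and 10.31, 10.31, 10.29, 10.59 and 10.81 in air, also without overlap, and rose 2.16-fold (1.11 ± 0.17, adjusted p = 0.00209). Both passed without any 1 of the 10 arrays. They were the 2 called among 12 measured hypoxia and VEGF genes, where 0.497% of all genes rose. Over all 12 the median change was 0.09. Of the others Slc2a1, the glucose transporter, had 0.08 (adjusted p = 0.94). Ndrg1, a hypoxia-responsive gene, had -0.81 (adjusted p = 0.0569), and both it and Slc2a1 were picked out after their values were seen. A dimmer probe set of Vegfa had a change of 0.13 that did not pass (adjusted p = 0.762).

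Genes of glutathione and NADPH supply were among those that fell. NRF2 switches on antioxidant genes, and of its 28 targets measured 0 rose and 7 fell, where 0.959% of all genes fell, with a median of -0.23. Gstm3, a glutathione transferase of the mu class, was at 8.40, 8.34, 9.99, 8.29 and 8.48 at 20 ppm and 10.71, 9.78, 10.42, 10.10 and 10.90 in air. Of the exposed mice only replicate 3 reached the air range, and Gstm3 was 3.21-fold lower (-1.68 ± 0.32, adjusted p = 0.00872). Gsta4, which conjugates products of lipid peroxidation, had 8.69, 8.07, 8.29, 8.11 and 8.28 at 20 ppm and 9.11, 9.09, 8.92, 9.32 and 9.21 in air, with no overlap, and was 1.79-fold lower (adjusted p = 0.00613). Gstm4, another mu class member, was 1.71-fold lower (adjusted p = 0.0171), and near-identical relatives in this family can share probes. Gsr, the reductase that regenerates glutathione, was 1.3-fold lower (adjusted p = 0.0163), with groups apart. The 3 others that fell, Pgd, Tkt and Me1, belong to the pathways that make NADPH and pentoses, with changes of -0.73, -0.37 and -0.74 (adjusted p = 0.022, 0.0315 and 0.0367). Textbook targets of NRF2 on the list had changes near 0, with Nqo1, the quinone reductase, at 0.14 (adjusted p = 0.841) and Hmox1, heme oxygenase, at 0.13 (adjusted p = 0.907). These 2 were picked out after their values were seen, as were Pgd and Tkt. Gsta4 passed without any 1 array. Gstm3 missed the threshold without 20 ppm replicate 2 (adjusted p = 0.0543), and Gstm4 and Gsr without any 1 of 4 and 3 of the 10 arrays (adjusted p up to 0.0969 and 0.0654). G6pd2, a relative of the glucose-6-phosphate dehydrogenase gene at the low end of the scale, was 1.53-fold lower (adjusted p = 0.00613). Cndp2, a cytosolic dipeptidase that can release cysteine, was 1.52-fold lower (adjusted p = 0.00209), and both passed without any 1 array. A dimmer probe set of G6pd2 did not pass (-0.09, adjusted p = 0.827), while that of Cndp2 did (-0.41, adjusted p = 0.0175).

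None of the 14 measured genes on the styrene metabolism list was called in the fit of all 35 arrays, where 1.46% of all genes were. At that share a list of 14 can hold no call, so the lack of one tells little about styrene metabolism. All 14 measured members of the styrene metabolism list had changes between -0.26 and 0.27, with a median of 0.00582. Cyp2e1, the main hepatic oxidase of styrene, was at 13.44, 13.49, 13.38, 13.50 and 13.59 at 20 ppm and 13.29, 13.34, 13.30, 13.39 and 13.33 in air, a change of 0.15 ± 0.05 (adjusted p = 0.192). Cyp2f2, the other oxidase, had -0.05 (adjusted p = 0.847) and Cyp2a5, a further P450, 0.15 (adjusted p = 0.79). For Ephx1, the epoxide hydrolase of microsomes, the change was -0.23 (adjusted p = 0.541), and for Ephx2, the soluble one, 0.15. The glutathione transferases Gstm1, Gstp1 and Gstt1 and the microsomal Mgst1 had -0.22, -0.05, -0.13 and 0.01. Gstm3, Gsta4 and Gstm4, the transferases called lower above, are not on this list. For the alcohol and aldehyde dehydrogenases Adh1, Adh4, Aldh2, Aldh1a1 and Aldh3a2 the changes were 0.00, -0.26, 0.07, 0.14 and 0.27. The smallest adjusted p among the 14 was that of Cyp2e1, whose groups overlapped, and limma with a prior that depends on intensity called it (adjusted p = 0.0374).

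Nr1i3, which encodes the xenobiotic receptor CAR, rose. The receptor gene was at 9.52, 10.05, 9.34, 9.96 and 9.79 at 20 ppm and 8.33, 8.64, 8.50, 8.76 and 8.87 in air, with no overlap, and rose 2.16-fold (1.11 ± 0.20, adjusted p = 0.00707), a call kept without any 1 array. Of 20 measured CAR and PXR targets 0 rose and 1 fell, where 0.497% and 0.959% of all genes did, with a median of 0.15. At those shares a list of 20 can hold no rise, and 15 of the 20 had changes above 0, up to 0.94. The one that fell, Cyp2c55, a P450 known to be induced by CAR activators, had 5.57, 5.80, 6.72, 5.67 and 5.53 at 20 ppm and 8.18, 6.49, 8.33, 7.25 and 9.17 in air and was 4.08-fold lower (adjusted p = 0.0303). Its 20 ppm replicate 3 lay above the other exposed mice and inside the air range, and the call was lost without any 1 of 6 of the 10 arrays (adjusted p up to 0.103). Cyp1a2, a P450 of the AhR pathway and of hepatocytes around the central vein, was 1.36-fold lower (adjusted p = 0.0293). It was the only one called of 8 AhR targets and of 10 pericentral genes, where 0.959% of all genes fell. Without any 1 of 7 arrays it missed the threshold (adjusted p up to 0.136). None of 12 p53 targets was called, where 1.46% of all genes were, and Phlda3, with the smallest p of them, had 0.16 (adjusted p = 0.523).

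Among chaperones Hspb1 fell. This small heat shock protein was at 8.37, 6.77, 8.42, 7.51 and 8.94 at 20 ppm and 9.30, 9.34, 10.10, 9.96 and 8.91 in air. Replicate 5 at 20 ppm, at 8.94, lay just above replicate 5 in air, at 8.91, and the other exposed mice were lower than every air mouse. Hspb1 was 2.87-fold lower (-1.52 ± 0.27, adjusted p = 0.00707) and passed without any 1 array. Among its dimmer probe sets 1 passed (-1.46, adjusted p = 0.0144), and those at -0.41 and -0.38 did not (adjusted p = 0.11 and 0.0603). Hspb1 is a chaperone by its family. It was the only call among 14 heat shock chaperones, whose median was -0.35, where 0.959% of all genes fell. Hspa1b, the inducible HSP70, had -1.28 (adjusted p = 0.395, picked out after its value was seen). Serpinh1, a chaperone that helps collagen fold, was at 6.35, 5.41, 6.48, 5.59 and 6.39 at 20 ppm and 6.55, 7.34, 7.37, 7.42 and 7.04 in air and was 2.14-fold lower with no overlap (adjusted p = 0.0144). Col4a1, a basement membrane collagen, was 1.55-fold lower (adjusted p = 0.0177). These were the 2 calls of 15 collagen and collagen processing genes, where 0.959% of all genes fell. Serpinh1 missed the threshold without 20 ppm replicate 2 or 4 (adjusted p up to 0.0867) and Col4a1 without 20 ppm replicates 2, 4 or 5 or air replicate 2 (adjusted p up to 0.0867). None of 23 endoplasmic reticulum stress genes was called, where 1.46% of all genes were. Pdia6, a disulfide isomerase with the smallest p of them, had -0.43 (adjusted p = 0.146). Cirbp, a cold-inducible RNA-binding protein, had 5.57, 7.21, 6.27, 6.20 and 6.32 at 20 ppm and 5.10, 6.09, 4.62, 4.96 and 5.02 in air and rose 2.23-fold (adjusted p = 0.0267). The groups overlapped, and the call was lost without any 1 of 5 arrays (adjusted p up to 0.143).

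Cytoskeletal genes fell in part. Of 10 measured tubulins 3 fell, where 0.959% of all genes did, and 0 rose, with a median of -0.54. Tuba1a, an alpha tubulin, was at 6.71, 5.39, 6.77, 5.55 and 6.68 at 20 ppm and 6.95, 7.80, 7.71, 7.60 and 7.60 in air, with the exposed mice all lower, and was 2.48-fold lower (-1.31 ± 0.24, adjusted p = 0.00717), kept without any 1 array. Tuba1b and the beta tubulin Tubb5 were 1.85-fold and 1.56-fold lower (adjusted p = 0.0189 and 0.0272), and probes may not tell the alpha tubulins apart, whose sequences are nearly the same. In all 3, 20 ppm replicate 2 was the lowest mouse. Actb, beta actin, had 12.76, 12.40, 12.86, 12.50 and 12.50 at 20 ppm and 13.04, 12.98, 12.98, 12.91 and 12.87 in air, apart and 1.28-fold lower (adjusted p = 0.0193), and Myl9, a myosin light chain of contractile cells, was 1.99-fold lower (adjusted p = 0.0196). They were the 2 calls of 12 actin and SRF genes, where 0.959% of all genes fell. Tuba1b, Tubb5, Actb and Myl9 missed the threshold without any 1 of 4, 5, 4 and 4 of the 10 arrays (adjusted p up to 0.112, 0.145, 0.108 and 0.104, each without 20 ppm replicate 2). Cdh1, E-cadherin, which joins hepatocytes around the portal vein, had 8.37, 6.56, 8.35, 6.93 and 7.23 at 20 ppm and 8.89, 9.18, 8.84, 8.88 and 8.52 in air and was 2.59-fold lower with no overlap (adjusted p = 0.00826, and 0.0564 without 20 ppm replicate 2). In the same periportal list Arg1, the arginase of the urea cycle, rose 1.2-fold (adjusted p = 0.0397), a call lost without any 1 of 8 arrays (adjusted p up to 0.153) and with arrays centred on their medians (adjusted p = 0.0641).

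Further genes among the largest changes belong to several functions. Fkbp5, which binds the glucocorticoid receptor complex and is induced by it, had 8.58, 9.88, 9.27, 9.44 and 9.67 at 20 ppm and 7.42, 8.58, 7.53, 7.95 and 8.10 in air and rose 2.74-fold, the groups meeting at 8.58 (adjusted p = 0.0127, and 0.0711 without 20 ppm replicate 2). It was the only call of 13 glucocorticoid targets, where 0.497% of all genes rose. St3gal5, the synthase of the ganglioside GM3, rose 2.45-fold (adjusted p = 0.0163), Trim24, a nuclear co-regulator, 2.92-fold (adjusted p = 0.0217) and Inhbe, an activin subunit made by hepatocytes, 2.31-fold (adjusted p = 0.0438). Nipal1, a magnesium transporter of the NIPA family, rose 3.33-fold (adjusted p = 0.0262). Aqp8, a water channel, had 8.13, 6.99, 8.86, 7.41 and 7.55 at 20 ppm and 9.31, 9.27, 8.83, 9.29 and 9.16 in air and was 2.61-fold lower (adjusted p = 0.0128). Atp4a, the catalytic subunit of the gastric proton pump, here at a low level, was 2.56-fold lower with no overlap (adjusted p = 0.00872). Grk5, a kinase of G protein-coupled receptors, was 3.44-fold lower (adjusted p = 0.0327), Nat8f5, of the N-acetyltransferase 8 family, 2.57-fold (adjusted p = 0.0495), Pdzk1ip1, a small membrane protein, 2.37-fold (adjusted p = 0.00613) and Depp1, a target of FOXO factors, 2.24-fold (adjusted p = 0.0468). Ano6, a phospholipid scramblase, and Ociad2 fell by 0.60 and 0.47 on the log2 scale (adjusted p = 0.00616 and 0.0031), each with no overlap. Atp4a, Pdzk1ip1, Ano6 and Ociad2 passed without any 1 array. Dimmer probe sets of Pdzk1ip1 (-0.53, adjusted p = 0.0764), Ano6 (-0.41, adjusted p = 0.155) and Grk5 (-0.52, adjusted p = 0.163) did not pass in limma. Those of Trim24, Nipal1 and Depp1 did not either, while those of Ociad2 (-0.61, adjusted p = 0.0115) and St3gal5 (1.19, adjusted p = 0.0152) did. Aqp8 missed the threshold without 20 ppm replicate 2 or 4 (adjusted p up to 0.0823), and St3gal5, Trim24, Inhbe, Nipal1, Grk5, Nat8f5 and Depp1 without any 1 of 3, 5, 7, 7, 8, 8 and 7 of the 10 arrays. Nat8f5 also missed it after a second quantile normalization (adjusted p = 0.0536).

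Of 11 female-biased liver genes 3 rose, where 0.497% of all genes did, namely Acot3, Fmo2 and Abcd2. Abcd2, a peroxisomal transporter of very long fatty acids, rose 1.77-fold (adjusted p = 0.0231). Of 12 male-biased genes only Elovl3 fell, where 0.959% of all genes did. The list median of the female-biased genes was 0.20, and the classical members Cyp2b9 and Cyp3a41a had 0.20 (adjusted p = 0.805) and 0.10 (adjusted p = 0.917), picked out after their values were seen. Among 23 cell cycle genes Mcm6, of the replicative helicase, was 2.02-fold lower (adjusted p = 0.0315). Among 14 interferon response genes Psmb9, an immunoproteasome subunit, was 1.65-fold lower (adjusted p = 0.0187). Each was the only call of its list, where 0.959% of all genes fell. Abcd2, Mcm6 and Psmb9 missed the threshold without any 1 of 6, 6 and 5 arrays (adjusted p up to 0.0874, 0.151 and 0.105). None of 27 inducible acute phase genes was called, where 1.46% of all genes were. Serpina3n, a secreted protease inhibitor, was at 10.97, 11.74, 11.17, 11.25 and 10.63 at 20 ppm and 10.25, 10.32, 10.23, 10.51 and 11.22 in air (change 0.65 ± 0.18, adjusted p = 0.0636). Only air replicate 5, at 11.22, reached the middle of the exposed mice, and without that mouse Serpina3n passed (change 0.83, adjusted p = 0.0117). It passed in 6 of 21 alternatives in all. Lcn2, which binds bacterial iron carriers, had the largest change of the list, 1.97 (adjusted p = 0.115, picked out after its value was seen).

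All 12 measured markers of Kupffer cells, the liver's resident macrophages, had changes below 0, and none passed, where 1.46% of all genes did. Their median was -0.45, the largest change that of Folr2 at -0.74 (adjusted p = 0.0648), and their mean level was 7.21, 6.24, 7.04, 6.87 and 6.82 at 20 ppm against 6.97, 7.29, 6.98, 7.26 and 7.95 in air. Folr2 passed in 4 of 21 alternatives, at the lowest p without 20 ppm replicate 1 (adjusted p = 0.0312). For the list's mean level the groups overlapped, and 20 ppm replicate 2, the mouse farthest from air in 8 of the 15 largest rises, was the lowest. The summed linear level was 1594 to 2995 at 20 ppm and 2478 to 4499 in air. None of the 11 sinusoidal endothelial, 12 stellate, 11 neutrophil, 11 T and NK cell, 7 B cell, 4 erythroid and 5 cholangiocyte markers measured was called by limma in either direction. Lists this short can hold no call where 1.46% of all genes are called. Of 10 exocrine pancreas markers Cela1 and Cela2a, elastases, fell, where 0.959% of all genes did. They were 1.57-fold and 1.88-fold lower (adjusted p = 0.0495 and 0.0279). The summed linear level of the 10 was 254 to 454 at 20 ppm and 371 to 509 in air. The defining pancreatic genes Prss1, Cpa1 and Clps lay near the bottom of the scale, at 3.65, 3.10 and 2.72 at 20 ppm and 3.71, 3.11 and 2.76 in air. Cela1 and Cela2a missed the threshold without any 1 of 7 and 5 of the 10 arrays (adjusted p up to 0.179 and 0.0975), and Cela1 after a second quantile normalization (adjusted p = 0.0542).

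**Figure D4:**
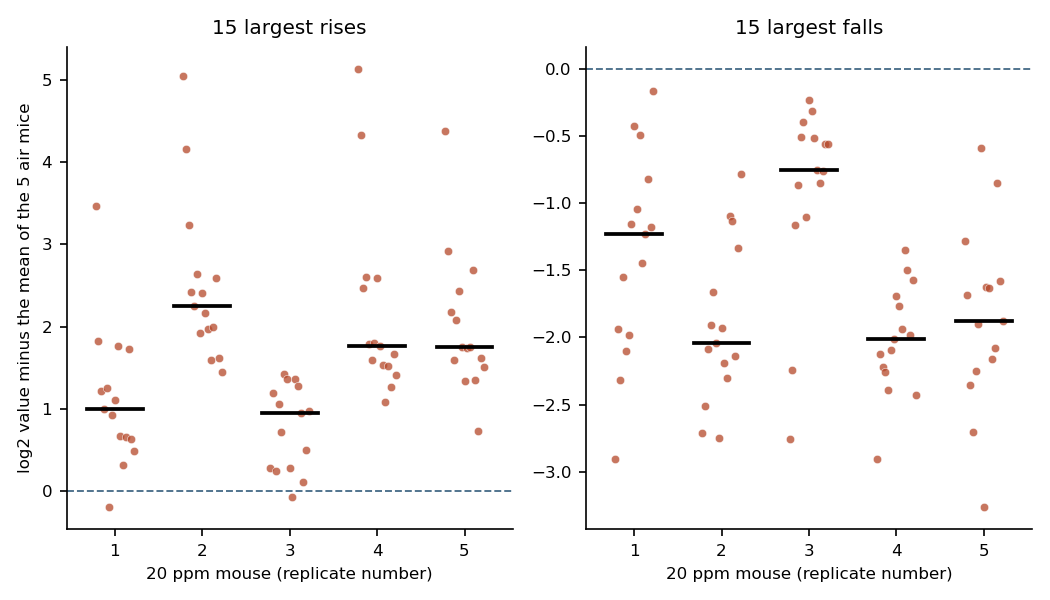
Difference of each 20 ppm mouse from the mean of the 5 air mice on the log2 scale, for the 15 largest rises (left) and the 15 largest falls (right), with 1 point per gene and a line at the median. Replicate 3 has medians of 0.95 and -0.76 and replicate 2 medians of 2.25 and -2.04.

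The 5 mice at 20 ppm differed from each other more than the air mice did in most of the largest changes. The SD was larger at 20 ppm in 13 of the 15 largest rises and in 9 of the 15 largest falls. How often this held over all genes was not counted. Some of these rises were low on the scale in air, as were Slc16a5 (3.03 to 4.25) and Ciart (3.17 to 3.83). The part of that low level in the SD was not tested. Replicate 3 was the exposed mouse nearest to the air mean in 8 of the 15 rises and replicate 1 in the other 7. Among the falls replicate 3 was nearest in 10, replicate 5 in 3 and replicate 1 in 2. The farthest mouse was replicate 2 in 8, replicate 4 in 5 and replicate 5 in 2 of the rises, and replicate 5 in 6, replicate 2 in 5 and replicate 4 in 4 of the falls. Over the rises the median difference from the air mean was 1.00, 2.25, 0.95, 1.76 and 1.75 for replicates 1 to 5. Over the falls it was -1.23, -2.04, -0.76, -2.01 and -1.88. Since these genes were chosen for their change, this describes the mice and tests nothing. On the first principal component of all 35 arrays (27.9% of the variance), 20 ppm replicates 1 and 3 lay at -6.76 and -16.5 and the other 3 between 14.9 and 20.7, while the air arrays ran from -35.9 to -5.51. The actin difference, 0.61 in both replicates 1 and 3, was lowest in the same 2 mice, and its part in their position was not tested.

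**Figure D5:**
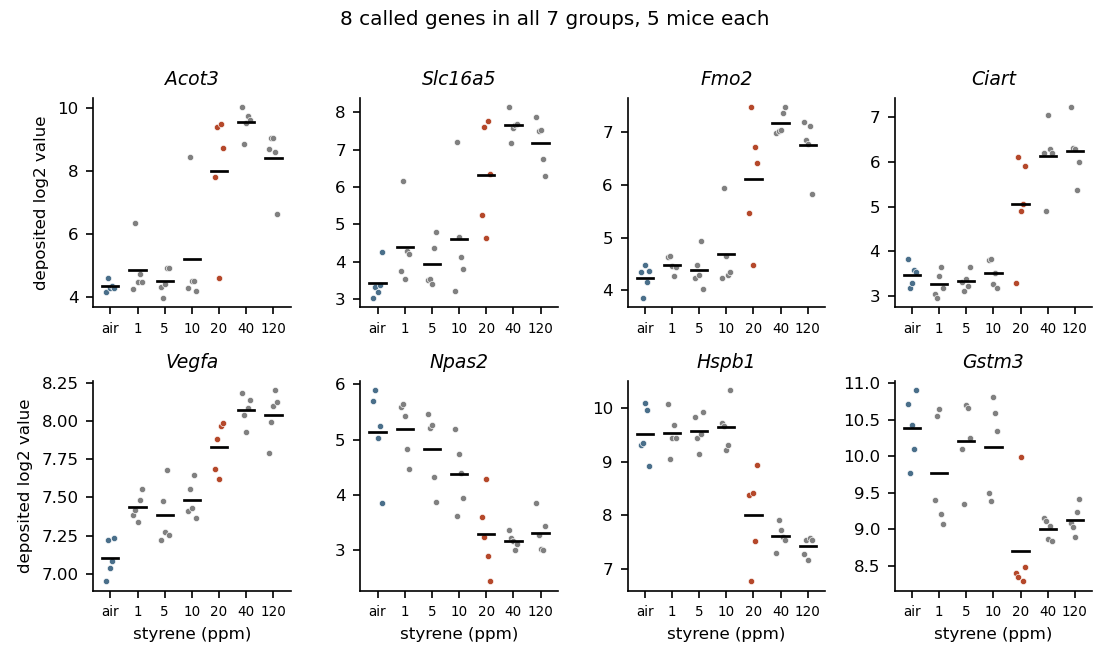
Deposited log2 values of 8 called genes in all 7 groups of 5 mice, from air to 120 ppm, with a line at each group mean, air in blue and 20 ppm in red. Acot3 averages 4.33 in air and, from 10 to 40 ppm, 5.18, 7.99 and 9.54, and its 20 ppm mice run from 4.61 to 9.46. For Gstm3, Npas2 and Hspb1 some 20 ppm mice lie below every 40 ppm mouse.

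Against 10 ppm, which shares no mouse with air, 157 of 45037 probe sets were called at 20 ppm (0.349%), 92 higher and 65 lower. The same 20 ppm mice enter both comparisons, so the values stand side by side and are no second test of the change against air. Of the genes named, picked out after these values were seen, Hspb1 had a change of -1.65 (adjusted p = 0.0134). Cirbp rose by 1.57 (adjusted p = 0.014), Nr1i3 by 1.07 (adjusted p = 0.019) and Vnn1 by 1.64 (adjusted p = 0.0289), while Serpinh1 had -1.28 (adjusted p = 0.0159). Acot3 had 2.81 (adjusted p = 0.0552), with 10 ppm replicate 2 at 8.43 and the other 10 ppm mice between 4.18 and 4.50. Vegfa had 0.35 (adjusted p = 0.0892), with group means of 7.83 at 20 ppm and 7.48 at 10 ppm. For the 2 lung genes the changes between 20 and 10 ppm were 0.01 for Scgb1a1 (adjusted p = 0.998) and -0.07 for Sftpc (adjusted p = 0.986). The count was 0 without 20 ppm replicate 2 or 4 in limma, with 3635 and 3993 at an unadjusted p under 0.05, and it was 521 without replicate 3 and 50 without replicate 5.

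At 40 ppm 168 probe sets were called against 20 ppm (0.373%), 122 higher and 46 lower, again with the same 20 ppm mice. Acot3 was at 9.54 at 40 ppm and 7.99 at 20 ppm (difference 1.55, adjusted p = 0.3), and Ciart at 6.13 at 40 ppm and 5.05 at 20 ppm (difference 1.08, adjusted p = 0.157). Usp2 was at 8.18 at 40 ppm and 7.21 at 20 ppm (difference 0.97, adjusted p = 0.137). Gstm3 differed by 0.30 (adjusted p = 0.715), and Hspb1 had -0.39 (adjusted p = 0.549). A p that misses the threshold does not show equal levels, and with 20 ppm replicates 1, 3, 4 and 5 left out in turn the count was 30, 51, 54 and 584.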

How the data were processed

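The authors deposited 1 log2 expression value for each probe set on each array of an Affymetrix 3' IVT array, with RMA and Partek listed, without version or role, per the submitters' processing notes. RNA came from Trizol and RNeasy extraction, per the labels' protocols. The log base is not given in the sources used here and was taken as 2 from the range of values, 1.74 to 14.23. No normalization was added. Array number limits the precision, and low values near background can understate changes. The p-values measure the spread between mice labelled as biological replicates.

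Of 45141 probe sets the 104 controls were left out, and 28898 of the other 45037 named 1 gene. Another 551 named several and 15588 named none here. For each of 17097 genes the brightest probe set over all arrays was used. limma 3.58.1 in R 4.3.3 (with the data.table package, version 1.17.8) fitted 7 group means to all 35 arrays (28 residual and 5.41 prior degrees of freedom), with Benjamini-Hochberg adjustment over all probe sets. SE is the fit's, and SD is over 5 mice.

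Single array values were tested by exact permutation. The genes named are the 15 largest rises and falls, the 10 smallest p, up to 4 called members of each of 42 lists (500 of 578 different genes measured) or else the member with the smallest p, and all styrene metabolism genes. The members and lists were chosen with earlier results of these data known, so lists are described by counts and medians. Fits were checked on simulated data whose noise was independent between probe sets. No effect was shared across an array there, so that check does not cover such effects in these data. The alternatives were array scaling, array weights, an intensity-dependent prior, brighter probe sets, gene means, covariates, a replicate block and leaving arrays out.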

Additional observations from a re-analysis of the deposited data

Results flagged for a closer look

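In 21 of 262 groups of 5 values examined 1 mouse stood apart from the rest by Dixon's criterion, and chance alone gives about 1 in 20. At 20 ppm replicate 3 stood apart, towards air, in Vnn1 (7.70, next mouse 9.51), Cyp2c55 (6.72, next 5.80) and Gstm3 (9.99, next 8.48). Folr2 was low in 20 ppm replicate 2 (5.57, next 6.61), Scgb1a1 was high in replicate 5 (5.30, next 3.87), and the GAPDH 3' minus 5' difference was low in replicate 5 (-0.40, next 0.13).

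In air replicate 5 was high for Slc16a5 (4.25, next 3.37) and Serpina3n (11.22, next 10.51) and low for Elovl3 (10.85, next 12.34). Replicate 4 was high for Krt19 (7.04, next 3.66) and Phlda3 (3.79, next 3.53). The remaining air values apart from their group were Tuba1a in replicate 1 (6.95), Arg1 (12.68) and Ighm (3.87) in replicate 3 and Dnase1l3 in replicate 2 (7.24). For genes followed over all groups, 10 ppm replicate 2 was high for Acot3 (8.43) and Fmo2 (5.93), 1 ppm replicate 2 was high for Acot3 (6.35), and 120 ppm replicate 5 was low for it (6.61). Bnip3 was low in 1 ppm replicate 3 (10.03) and 40 ppm replicate 2 (11.72).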

How the results depend on the processing

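The calls depend on which arrays share the estimate of spread. With only the 10 arrays compared 0 probe sets and 0 genes were called, higher or lower (5343 probe sets at an unadjusted p under 0.05 in limma), and likewise 0 with the actin 3' minus 5' difference as a covariate (1696 at an unadjusted p under 0.05). Array weights gave 1037 probe sets, 460 higher and 577 lower, 417 with a fold of at least 1.5, and 551 genes. Leaving out 1 array in turn gave 37 to 1109 probe sets, 13 to 442 higher and 24 to 667 lower, 29 to 519 with a fold of at least 1.5, and 23 to 601 genes. The fits without 1 of the 20 ppm arrays gave 0 to 521 against 10 ppm and 30 to 584 for 40 ppm against 20 ppm. No array of 10 or 40 ppm was left out. For the array median, leaving out 1 of the 10 arrays gave differences of 0.0174 to 0.0364, the last without 20 ppm replicate 1 (exact permutation p = 0.0317). Leaving out 20 ppm replicate 5 and air replicate 4 together, an alternative added after seeing the data, gave 30 probe sets, 14 higher and 16 lower, 24 with a fold of at least 1.5, 16 genes, 45 against 10 ppm and 518 for 40 ppm against 20 ppm. A second quantile normalization left 61 for 40 ppm against 20 ppm. Centring, quantile normalization, the intensity-dependent prior, brighter probe sets (693) and means over probe sets (334 genes) kept the counts against air within 1.5 times, but single calls were lost: Arg1 with centring, Nat8f5 and Cela1 with quantile normalization and Arntl with means over probe sets. Of the 32 named genes not called, array weights called 5, brighter probe sets 4, the intensity-dependent prior 3 and means over probe sets 2, and leaving out 1 array called up to 5. No called gene named here changed sign in any alternative. Dimmer probe sets of Tef, Tubb5, Col4a1, Actb, Me1 and Abcd2 did not pass in the main fit (adjusted p from 0.0673 to 0.745). Those of Usp2, Hlf, Npas2, Serpinh1, Gstm3, Gsr, Slc25a20 and Pex11a did. As a replicate block the mouse number gave 536 probe sets, of which 440 were shared, without Depp1 (adjusted p = 0.0545) and with 1 named gene gained, Hsd17b7. Deviations of same-numbered mice correlated at -0.07 to 0.07, with none best with its own number, so the numbers were not taken as pairs. The cause of these shifts was not tested.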

Other observations

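Several programmes of liver metabolism had no member called by its brightest probe set in limma, where 1.46% of all genes were called. At that share lists of this size can hold no call. Among 15 genes of bile acid synthesis and transport Nr1h4, the bile acid receptor FXR, had the smallest p, at 9.15 at 20 ppm and 8.50 in air (change 0.65 ± 0.18, adjusted p = 0.069), and the list median was 0.20. Of 17 genes of cholesterol synthesis Hsd17b7, an enzyme of its later steps, was at 8.05, 8.58, 7.89, 8.16 and 7.97 at 20 ppm and 7.12, 7.69, 7.68, 7.39 and 7.29 in air. Its groups did not overlap, and its brightest probe set did not pass (change 0.69, adjusted p = 0.0546). A dimmer probe set did (change 0.63, adjusted p = 0.0387), and the brightest passed in 6 of 21 alternatives (lowest adjusted p = 0.0199). Of 10 gluconeogenesis and fasting genes, with a median of -0.13, Igfbp1, a secreted binding protein that rises in fasting, had -1.31 (adjusted p = 0.111). Pdhb, a subunit of pyruvate dehydrogenase, had -0.20 (adjusted p = 0.206), with exposed mice all below air mice, in a list of 10 with a median of 0.02.

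Signalling and splicing lists were alike in having no call, where 1.46% of all genes were called. Stat5b, the mediator of growth hormone, had -0.44 (adjusted p = 0.196) among 9 genes of that axis, and Egr1, an immediate early transcription factor, -1.56 (adjusted p = 0.486) among 14. Tra2b had 0.34 (adjusted p = 0.0962) among 10 splicing factors of the SR and Tra2 families. In the marker lists of other cells the members with the smallest p were Dnase1l3 of sinusoidal endothelium at -0.31 (adjusted p = 0.146) and Col3a1 of stellate cells and fibroblasts at -0.80 (adjusted p = 0.205). For blood cells they were S100a8 of neutrophils, Cd8b1 of T cells, Ighm of B cells and Alas2 of erythroid cells, at -0.60, -0.18, -0.21 and -0.37 (adjusted p = 0.53, 0.426, 0.518 and 0.308).

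Without 20 ppm replicate 3, 5 of these genes passed, with adjusted p of 0.00826 for Nr1h4, 0.0285 for Hsd17b7, 0.0124 for Stat5b, 0.0309 for Dnase1l3 and 0.0232 for Alas2, and Igfbp1 passed without 20 ppm replicate 1 (adjusted p = 0.0248). Array weights called Nr1h4, Hsd17b7 and Dnase1l3 as well.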
